A study of Homo sapiens with 6 samples.

Results

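The genes described here are the steroidogenic acute regulatory protein gene STAR, 5 of its relatives (STARD3, STARD4, STARD5, STARD7 and STARD10) and 4 genes of mitochondrial cholesterol and steroid metabolism (TSPO, CYP11A1, FDX1 and FDXR), 10 of the 58735 genes in the deposited table. STAR was chosen by its measured values, a high level in control cells and a strong decrease with celastrol, and the other 9 were taken by name as family or pathway members. Its difference between treatments is therefore described without a test. The RNA came from SKM-1, an established human line of acute myeloid leukaemia, cultured for 48 h with celastrol (3 libraries) or with DMSO, the solvent (3 libraries). Celastrol is a plant triterpenoid. The sources used here give neither its dose nor whether replicates were separate cultures. The p-values therefore measure only how these libraries vary, and that variation may be technical. The 6 libraries held 13549187 to 16231066 reads on listed genes, and mitochondrial transcripts took 1.37% to 1.85% of them with celastrol and 5.44% to 5.65% with DMSO. Of the 14 myeloid leukaemia markers looked at, the leukocyte genes PTPRC and SPI1 averaged 12.7 and 17.9 FPKM with DMSO, whereas MPO averaged 0.0136 and CD34 was listed at 0 in every library.

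Steroid hormone synthesis begins in mitochondria. STAR moves cholesterol from the outer to the inner mitochondrial membrane, where the cytochrome P450 enzyme CYP11A1 cleaves its side chain to make pregnenolone. The electrons for that reaction pass from NADPH to the flavoprotein FDXR (ferredoxin reductase), then to the iron-sulfur protein FDX1 (ferredoxin), and then to the P450. The START domain, a lipid-binding pocket first described in STAR, is shared by proteins that carry cholesterol or phospholipids between other membranes. This pathway is best known in the adrenal cortex and gonads, and not in blood cells. Ferredoxins, however, also serve iron-sulfur cluster assembly and lipoylation in most cells.

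Promoter windows from RefSeq (GRCh38.p14, 250 bases before to 50 after a gene start) matched 9 of the 10 genes, with 12 windows in all. The gene without a window was STAR, so the STAR promoter was not searched and nothing below describes it. They are shown for STARD7 (chr2:96208778-96209077, minus strand) and for the upstream start of FDXR (chr17:74872945-74873244, minus strand), because these were the members that passed the test, in opposite directions. Capitals mark CCAAT and GGGCGG on either strand, and no marked run overlaps another.
STARD7: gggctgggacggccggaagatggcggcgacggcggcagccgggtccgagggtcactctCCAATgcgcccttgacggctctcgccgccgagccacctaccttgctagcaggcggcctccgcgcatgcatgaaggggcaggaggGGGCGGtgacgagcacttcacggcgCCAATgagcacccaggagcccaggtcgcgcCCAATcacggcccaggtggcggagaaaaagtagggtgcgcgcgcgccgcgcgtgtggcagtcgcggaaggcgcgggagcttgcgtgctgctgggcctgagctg
FDXR: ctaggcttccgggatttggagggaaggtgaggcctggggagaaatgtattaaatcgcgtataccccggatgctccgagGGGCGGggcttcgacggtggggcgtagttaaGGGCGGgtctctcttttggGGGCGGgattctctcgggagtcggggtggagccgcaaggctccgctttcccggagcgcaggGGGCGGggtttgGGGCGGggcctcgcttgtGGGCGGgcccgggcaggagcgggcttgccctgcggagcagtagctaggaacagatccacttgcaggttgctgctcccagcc
The STARD7 window held 3 CCAAT boxes and 1 GGGCGG box, and the FDXR window held 6 GGGCGG boxes and no CCAAT. Of 35116 promoter windows of the same length, 34.6% held CCAAT and 45.0% held GGGCGG. Among the 9 genes with a window, 5 had CCAAT and 7 had GGGCGG in at least 1 window. The sterol response letters TCACNCCAC, the cAMP response letters TGACGTCA and the steroidogenic factor letters AAGGTCA, searched on both strands, were in 0 of the 12 windows. They occur in 1.13%, 1.85% and 3.92% of all windows, and such matches describe letters, not sites of binding.

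STAR was the member with the largest difference between treatments. Its levels with DMSO were 32.3, 28.7 and 30.9 FPKM (fragments per kilobase of gene, scaled to library size) in replicates 1 to 3. With celastrol they were 9.91, 9.02 and 8.33 FPKM. The treatments were well apart, and every celastrol library lay below every DMSO library. The celastrol mean of 9.09 ± 0.789 FPKM was 3.37-fold lower than the DMSO mean of 30.6 ± 1.80 (SD, n = 3). On the log2(FPKM + 0.1) scale the difference was -1.74 (SE 0.09). Between 1455 and 1749 reads stood behind each DMSO value and between 528 and 589 behind each celastrol value. STAR exceeded 93.3% to 94.0% of the genes with any read in the DMSO libraries and 77.0% to 79.5% of them in the celastrol libraries. Of the 12685 genes with a mean of at least 1 FPKM, which were the genes tested, 93 had a lower log2 difference. In a culture measured as a whole, fewer cells that contain a transcript and less of it per cell cannot be told apart.

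**Figure D1:**
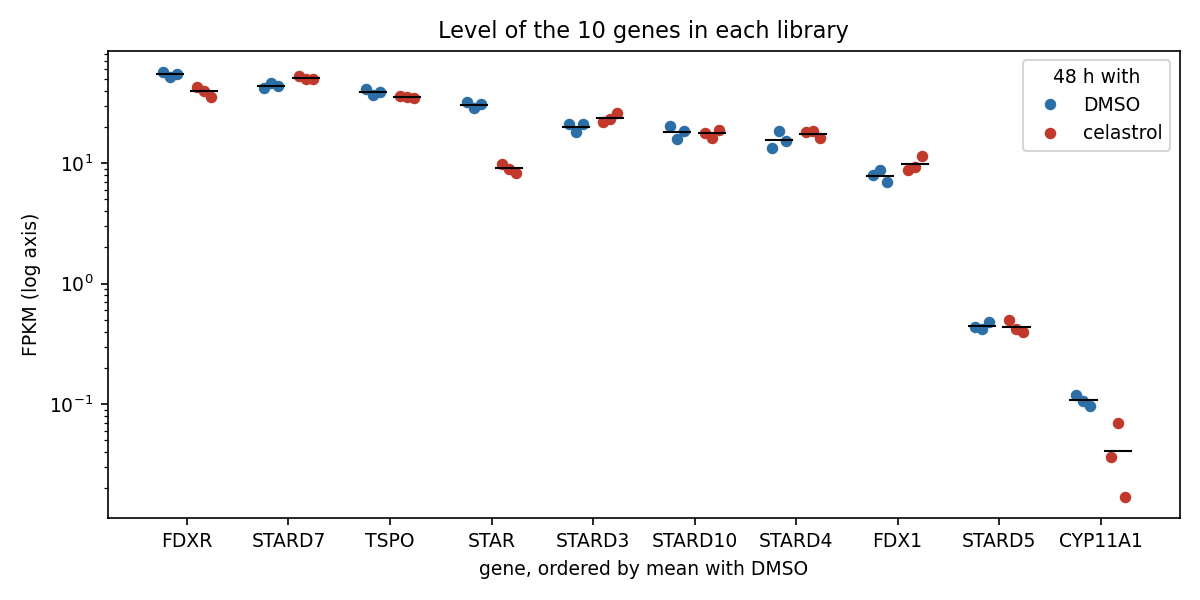
Level of each of the 10 genes in each library (FPKM, log axis), with DMSO in blue and celastrol in red, 3 libraries each in replicate order; the black lines are means. STAR drops from 30.6 to 9.09 FPKM on average, FDXR from 54.6 to 39.4, and STARD5 and CYP11A1 lie under 1 FPKM in all 6 libraries.

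The place of STAR in the genome bears on its count. In the table it spans chromosome 8, 38143649 to 38151265, on the minus strand of GRCh38, and 338 of its 3767 exonic bases (8.97%) are also exon of ASH2L, a subunit of histone methyltransferase complexes on the opposite strand. The sources used here do not say whether counting used strand, so reads in the shared stretch may be mixed between the genes or left uncounted. ASH2L averaged 41.8 ± 2.25 FPKM with celastrol and 50.3 ± 1.04 with DMSO (log2 difference -0.27, adjusted p = 0.0218). That call was lost under TPM (adjusted p = 0.773), with limma-voom (0.0755), when scaled to listed reads (0.0790) and without celastrol replicate 2 or 3 or DMSO replicate 3 (highest adjusted p = 0.0978). LSM1, which encodes a subunit of the mRNA decapping activator complex, lies 12056 bases beyond the start of STAR on the same strand. It rose from 9.42 ± 0.515 to 15.005 ± 1.27 FPKM (log2 difference 0.66, adjusted p = 0.00182), so the neighbour on the same strand went the other way. EIF4EBP1, a repressor of translation initiation 83284 bases away on the other side, fell from 114 ± 16.2 to 66.4 ± 3.95 FPKM (log2 difference -0.77, adjusted p = 0.00259).

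**Figure D2:**
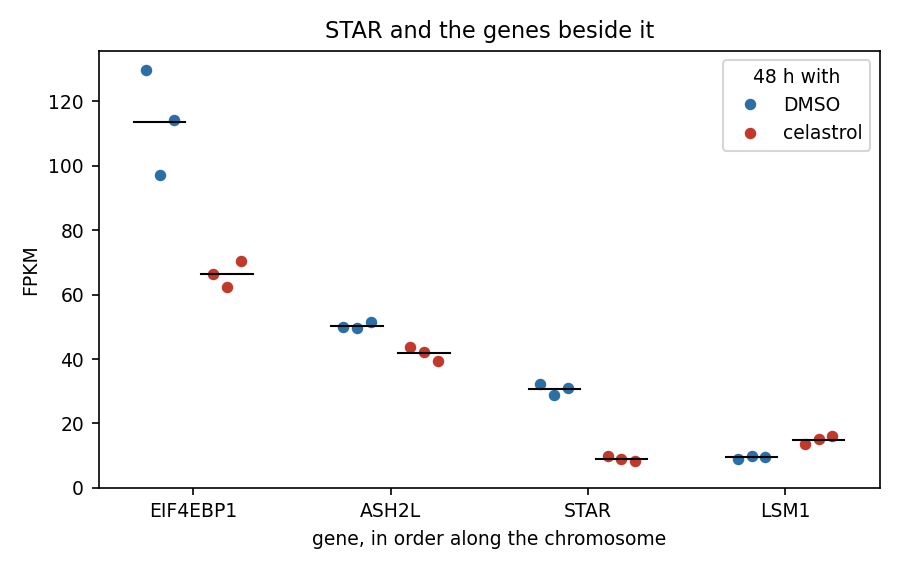
FPKM of STAR, of the overlapping gene ASH2L and of the nearest other protein-coding genes on each side, in order along the chromosome; points are libraries, lines are means of 3. STAR and EIF4EBP1 are lower with celastrol, ASH2L is lower by a small margin (41.8 against 50.3), and LSM1 is higher (15.005 against 9.42).

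The genes whose profile over the 6 libraries was closest to that of STAR were COL15A1 (a collagen), ITGB4 (an integrin beta subunit), ADD2 (an adducin of the membrane skeleton), MT-ND4 (a mitochondrially encoded subunit of complex I) and CTH (cystathionine gamma-lyase). Closeness was the root mean square difference of log2 values, each gene centred on its own mean, and ran from 0.0701 for COL15A1 to 0.115 for CTH. Pearson correlations with STAR over the 6 libraries were 0.992 to 0.998, and these largely restate that all 5 separate the same treatments. The DMSO and celastrol means were 5769 and 1782 FPKM for MT-ND4, and 26.8 and 8.27 FPKM for CTH.

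Of the other 9 members, 7 had a mean of at least 1 FPKM and were tested. With limma-trend and a Benjamini-Hochberg adjusted p under 0.05, 1 was called higher with celastrol (STARD7) and 1 lower (FDXR), where 15.3% and 14.2% of all tested genes were called higher and lower. The 2 treatments were without overlap for 5 of the 7 (3 higher, 2 lower) and for 47.3% of all tested genes. The calls are near the background in both directions. The median log2 difference of the 7 was 0.18, and that of all tested genes was 0.02. TPM scaling moved the latter to 0.26 and scaling to listed reads to 0.12, so differences of this size are relative to the scaling.

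The P450 itself was nearly silent. CYP11A1 (chromosome 15, 74337759 to 74367740) had 2, 4 and 1 reads in celastrol replicates 1 to 3 and 6, 5 and 5 in the DMSO replicates. These are 0.0363, 0.0690 and 0.0170 FPKM with celastrol and 0.119, 0.106 and 0.0963 with DMSO. The summed reads, 7 against 16, give a ratio of 0.380 with an exact 95% interval of 0.132 to 0.976, which covers counting error only. Both were scaled by the authors' library totals, and no other scaling was tried for them. As the upper limit lies close to 1, the interval does not settle whether the level differed. At this depth no more than a trace of the transcript was seen under either treatment, and the gene was below the minimum for testing. STAR in SKM-1 cells was thus measured alongside almost no CYP11A1 mRNA.

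Of the 2 electron carriers FDXR fell, and FDX1 did not pass the test. FDXR (chromosome 17, 74862497 to 74873031), which accepts electrons from NADPH, was at 42.9, 39.7 and 35.6 FPKM with celastrol and 57.1, 51.8 and 54.7 with DMSO. No celastrol library reached the lowest DMSO library. The means were 39.4 ± 3.66 and 54.6 ± 2.66 FPKM (SD, n = 3), 1.38-fold lower with celastrol (log2 difference -0.47, SE 0.09, adjusted p = 0.00656). The call was lost under TPM (log2 difference -0.23, adjusted p = 0.0604) and held under the other 15 alternatives. FDX1 (chromosome 11, 110429883 to 110464881) lay at 8.82, 9.24 and 11.4 FPKM with celastrol and 8.02, 8.71 and 6.92 with DMSO. Its groups were adjacent without overlapping, and celastrol replicate 3 was the highest. Its log2 difference of 0.31 (SE 0.12) did not pass (adjusted p = 0.0974), but did under TPM (0.00846), limma-voom (0.0127) and scaling to listed reads (0.0427). Within each library, where scaling cancels, the FDX1 to FDXR ratio was 0.206, 0.233 and 0.321 with celastrol and 0.140, 0.168 and 0.127 with DMSO. All 3 celastrol ratios were above all 3 DMSO ratios.

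**Figure D3:**
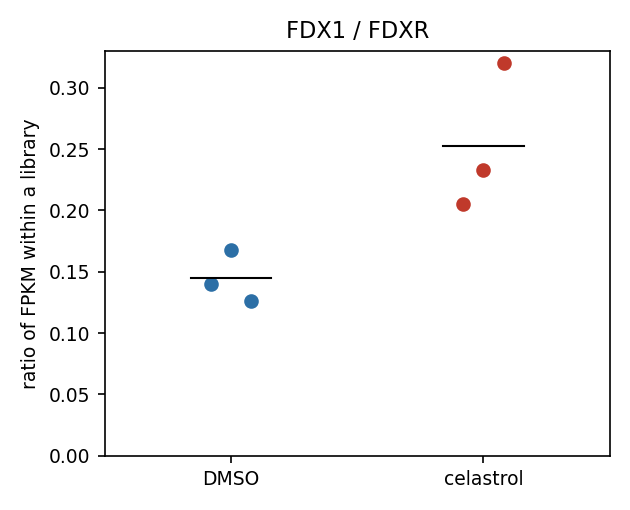
Ratio of FDX1 to FDXR in FPKM within each library (vertical axis, from 0) by treatment; points are libraries and lines are means of 3. The ratio is 0.206 to 0.321 with celastrol and 0.127 to 0.168 with DMSO.

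TSPO, the translocator protein of the outer mitochondrial membrane that binds cholesterol and porphyrins, was abundant and differed little. It had 36.2, 35.4 and 34.7 FPKM with celastrol and 41.2, 37.1 and 39.1 with DMSO (chromosome 22, 43151514 to 43163242). The celastrol libraries were all below the DMSO libraries, by a narrow gap. The log2 difference of -0.14 (SE 0.07) did not pass (adjusted p = 0.153), and it turned to 0.10 under TPM.

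Among the cholesterol-binding relatives, STARD3, which tethers endosomes to the endoplasmic reticulum and moves sterol between them, was at 22.0, 23.3 and 26.2 FPKM with celastrol and 21.1, 18.2 and 21.0 with DMSO (chromosome 17, 39637065 to 39663484). Celastrol replicate 3 was the highest and replicate 1 lay just above DMSO replicate 1. The log2 difference of 0.24 (SE 0.09) missed the threshold (adjusted p = 0.0874). It passed under TPM (0.00293), limma-voom (0.00512), scaling to listed reads (0.0204) and scaling to reads outside the mitochondrial chromosome (0.0410). STARD4, a soluble sterol carrier of the cytosol, lay at 18.1, 18.6 and 16.1 FPKM with celastrol and 13.4, 18.4 and 15.2 with DMSO (chromosome 5, 111496033 to 111512590). Its groups overlapped, and its log2 difference was 0.18 (SE 0.12, adjusted p = 0.300), passing only under TPM (0.0371). STARD5, another soluble START protein, had 36 to 50 reads per library. It lay at 0.4998, 0.418 and 0.394 FPKM with celastrol and 0.438, 0.422 and 0.478 with DMSO (chromosome 15, 81309053 to 81324183). Its groups overlapped and it was below the minimum for testing. Of its 6339 exonic bases, 4351 (68.6%) are also exon of IL16, a cytokine gene on the opposite strand, so its level is uncertain. IL16 averaged 0.960 FPKM with celastrol and 1.66 with DMSO.

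Among the phospholipid-binding relatives, STARD7, which delivers phosphatidylcholine to mitochondria, was the most abundant START gene of the set (chromosome 2, 96184859 to 96208825). It was at 53.1, 50.1 and 49.8 FPKM with celastrol and 41.7, 46.0 and 43.4 with DMSO. All celastrol libraries lay above all DMSO libraries. The means of 51.0 ± 1.84 and 43.7 ± 2.19 FPKM (SD, n = 3) gave a log2 difference of 0.22 (SE 0.07, adjusted p = 0.0433). The call was lost under 8 of 16 alternatives, among them no filter on low values (0.0758) and quantile normalization (0.0591). With 1 library left out in turn it was lost for 5 of the 6 and held only without DMSO replicate 2 (adjusted p 0.0284 to 0.144). The antisense gene STARD7-AS1 shares 410 of the 4414 exonic bases of STARD7 and averaged 2.67 FPKM with celastrol and 3.30 with DMSO. STARD10, a carrier of phosphatidylcholine and phosphatidylethanolamine, lay at 17.8, 16.3 and 18.8 FPKM with celastrol and 20.3, 15.9 and 18.5 with DMSO (chromosome 11, 72754729 to 72793681). Its groups overlapped throughout. Its log2 difference was -0.04 (SE 0.11, adjusted p = 0.784), and the sign changed with the scaling. It shares 725 of 3710 exonic bases with ARAP1, which averaged 23.8 and 23.0 FPKM.

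**Figure D4:**
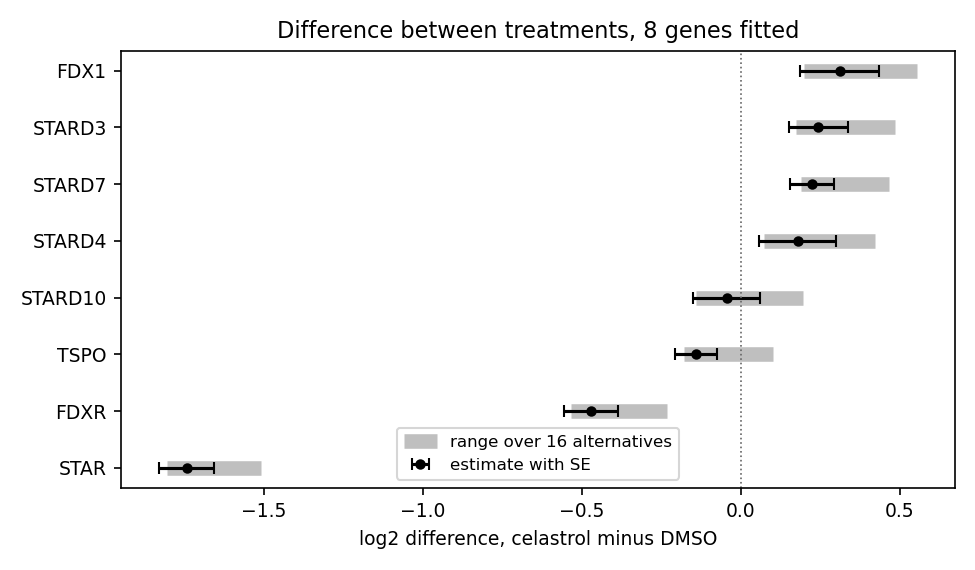
Log2 difference, celastrol minus DMSO, of the 8 genes with a mean of at least 1 FPKM; points with bars are estimates with SE, and grey bands span 16 alternative scalings, filters, tests and left-out libraries. The band of STAR runs from -1.81 to -1.51, the bands of STARD10 and TSPO cross 0, and the remaining bands stay on 1 side of it.

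Within a treatment, levels per length can be ranked, though only roughly. The length used was that of all annotated exons of a gene, over 1 transcript for FDX1 and 29 for STARD3. With DMSO the order was FDXR at 54.6, STARD7 at 43.7, TSPO at 39.1, STAR at 30.6, STARD3 at 20.1, STARD10 at 18.2, STARD4 at 15.6 and FDX1 at 7.88 FPKM. The neighbours STARD3 and STARD10, and STARD10 and STARD4, overlapped between libraries. With celastrol STARD7 was first at 51.0 FPKM, ahead of FDXR at 39.4, whose range overlapped that of TSPO at 35.5. STAR came down from rank 4 to rank 8, at 9.09 FPKM, and overlapped FDX1 at 9.82. STARD5 and CYP11A1 were last under both treatments.

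The counts in each list that follows stand beside 15.3% called higher and 14.2% called lower among all tested genes, and no list was tested against them. Of 10 other START-domain genes and relatives listed, 6 were tested and the remaining 4 did not exceed 0.013 FPKM. Among the tested were 1 higher and 1 lower, with a median log2 difference of -0.20. PCTP, which carries phosphatidylcholine, fell from 13.3 ± 0.802 to 8.20 ± 0.104 FPKM (log2 difference -0.69, adjusted p = 0.000718). STARD3NL, which lacks a START domain but shares the membrane part of STARD3, rose from 9.03 ± 1.20 to 12.6 ± 0.878 FPKM (0.48, adjusted p = 0.0145). That call was lost without celastrol replicate 3 (0.0507) or DMSO replicate 3 (0.0572). STARD8, with the highest mean of the list, averaged 14.1 FPKM with celastrol and 12.3 with DMSO (adjusted p = 0.148).

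Most of the listed enzymes that act with or after CYP11A1 were below the minimum level for testing. Of 10 listed P450 and electron supply genes 2 passed the minimum level, with 1 higher and 0 lower (0 lower also at an unadjusted p under 0.05 by limma-trend and by limma-voom), and CYP11B2 and CYP27C1 were listed at 0 in every library. POR, the reductase of microsomal P450 enzymes, rose from 26.3 ± 2.75 to 34.4 ± 4.85 FPKM (log2 difference 0.38, adjusted p = 0.0460). The POR call was lost when genes were not filtered (0.126) and when replicate 2 or replicate 3 of either treatment was left out (highest adjusted p = 0.115). The steroid-modifying list had 10 of 27 genes tested, with 0 higher and 2 lower by limma-trend and a median of 0.076. At an unadjusted p under 0.05 there were 3 higher, and limma-voom called 4 higher and 1 lower. HSD17B4, a peroxisomal enzyme of fatty acid breakdown, fell from 10.5 ± 0.349 to 7.77 ± 0.383 FPKM (-0.43, adjusted p = 0.00501), a call lost under TPM (0.0801). HSD3B7, of bile acid synthesis, was lower by a log2 difference of -0.28 (adjusted p = 0.0381), a call lost under 10 of 16 alternatives (highest adjusted p = 0.736). HSD17B10, a mitochondrial dehydrogenase and the most abundant of the list, averaged 79.6 FPKM with celastrol and 77.4 with DMSO. The classical steroid enzymes HSD3B1 and HSD3B2 were listed at 0 in all libraries. Markers of adrenal and gonadal steroidogenic cells summed to 9.14 to 10.9 FPKM with celastrol and 9.33 to 13.5 with DMSO, of which AMH averaged 8.91 and 9.66. Of those 13 markers, 12 were below the minimum level, and AMH, the 1 tested, was not called. It also did not pass at an unadjusted p under 0.05 by limma-trend, or by limma-voom, which says nothing about the untested markers. INHA, named after its values were seen, averaged 0.612 FPKM with celastrol and 1.39 with DMSO. It was the only marker of the list without overlap, and its mean of 0.999992 lay just under the minimum. The receptors MC2R and FSHR, together with HSD3B2 and INSL3, were at 0.

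Of 25 cholesterol routing genes, 16 were tested, of which 5 were called higher, 3 lower and 8 neither, with a median log2 difference of 0.12. SOAT1, which esterifies cholesterol in the endoplasmic reticulum, rose from 8.26 ± 0.537 to 12.9 ± 1.19 FPKM (0.63, adjusted p = 0.00266). GRAMD1A, a carrier of cholesterol from the plasma membrane to the endoplasmic reticulum, fell from 25.0 ± 2.12 to 16.7 ± 0.573 FPKM (-0.57, adjusted p = 0.00242). LAMP2, a lysosomal membrane protein and the most abundant of the list, rose from 32.1 ± 2.58 to 41.4 ± 1.54 FPKM (0.37, adjusted p = 0.0119), but not with celastrol replicate 2 left out (0.0554). The remaining calls, named after their values were seen, were NPC1, NPC2 and LAMP1, which were higher, and OSBP and OSBPL6, which were lower.

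The list of partners of STAR and TSPO reached beyond the outer membrane and contact sites to the inner membrane and matrix. It gave 2 higher and 4 lower genes of 18 tested, with a median of -0.052. LONP1, the matrix protease known to degrade imported STAR, fell from 109 ± 16.001 to 64.8 ± 3.94 FPKM (log2 difference -0.74, adjusted p = 0.00312). HSPA9, the matrix HSP70, fell from 87.9 ± 2.43 to 57.7 ± 1.62 FPKM (-0.60, adjusted p = 0.000662). TOMM20, an import receptor, fell from 196 ± 19.8 to 147 ± 13.3 FPKM (-0.41, adjusted p = 0.0191), a call lost under 7 of 16 alternatives (highest adjusted p = 0.230). The remaining calls, named after their values were seen, were DBI and PRKAR1A, which were higher, and SLC25A3, which was lower.

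Regulators known to act on STAR or steroidogenic genes had 8 higher and 8 lower of 33 tested, with a median of 0.11. NR1H3, the oxysterol receptor LXR alpha, rose from 1.98 ± 0.256 to 4.61 ± 0.448 FPKM (log2 difference 1.18, adjusted p = 0.000893). FOS, a subunit of AP-1, rose from 0.840 ± 0.0648 to 2.25 ± 0.241 FPKM (1.32, adjusted p = 0.00251). GATA1, the erythroid transcription factor and the most abundant of the list, fell from 158 ± 3.72 to 111 ± 14.95 FPKM (-0.52, adjusted p = 0.00754). GATA2 went the other way, from 59.4 ± 8.11 to 85.4 ± 7.41 FPKM (0.53, adjusted p = 0.0120). Also higher were CREM, FOXL2, FOSL2, PRKACA and PRKAR1A. CRTC1, CEBPB, SP1, SREBF2, PRKAR2A, ZFP36L1 and ZFP36L2 were lower. These remaining calls, GATA2 included, were named after their values were seen. NR5A1, the steroidogenic factor SF-1, was below the minimum for testing, at 0.362 FPKM with celastrol and 0.464 with DMSO. GATA4 and GATA6 were also below it.

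Genes of iron-sulfur cluster assembly and lipoylation, which also depend on ferredoxins, had 4 higher and 4 lower of 19 tested, with a median of -0.011. ISCU, the assembly scaffold, rose from 13.0 ± 0.650 to 18.1 ± 2.22 FPKM (0.48, adjusted p = 0.0113). DLD, the lipoamide dehydrogenase, fell from 49.6 ± 4.30 to 37.4 ± 1.01 FPKM (-0.40, adjusted p = 0.00904), a call lost under TPM (0.179). LIAS, the lipoyl synthase, fell from 2.55 ± 0.3998 to 1.72 ± 0.0595 FPKM (-0.53, adjusted p = 0.0318), a call lost under 8 of 15 alternatives, among them each celastrol library left out in turn (highest adjusted p = 0.156).

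**Figure D5:**
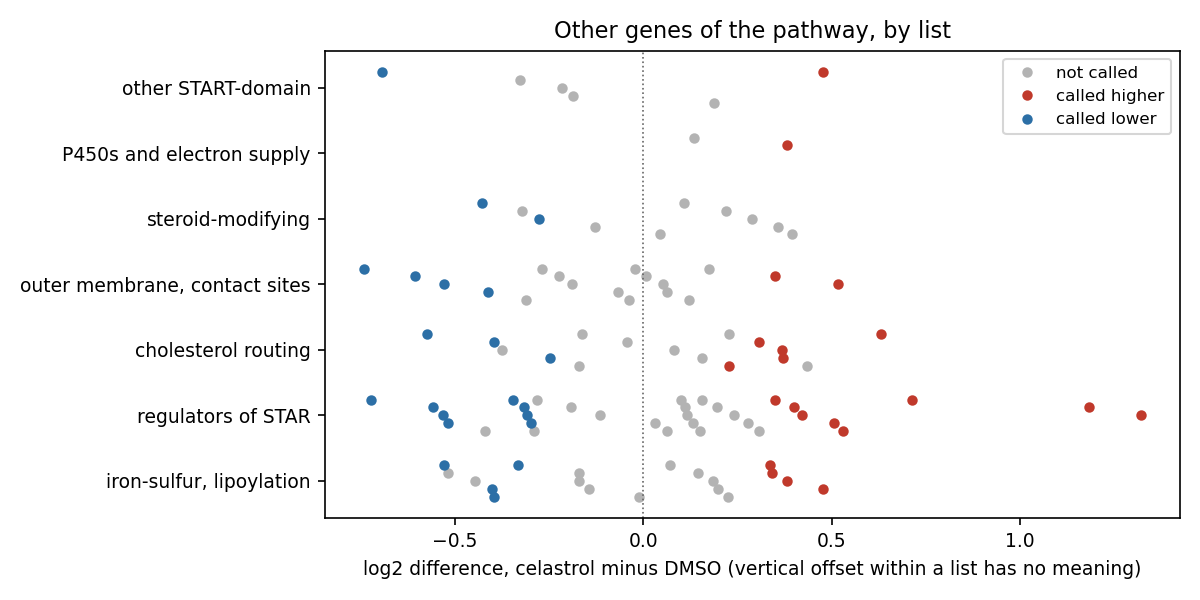
Log2 difference, celastrol minus DMSO, of each tested gene in 7 pathway lists that exclude the 10 genes; red marks genes called higher, blue genes called lower and grey genes not called. Every list but 2 has calls on both sides of 0, the exceptions being the P450 list (1 higher) and the steroid-modifying list (2 lower); NR1H3 at 1.18 and FOS at 1.32 lie farthest to the right.

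Markers of other cell types changed beside these results. Of 16 fibroblast, endothelial, epithelial and lymphoid markers, 5 were tested, and the list summed to 118 to 140 FPKM with celastrol and 99.2 to 106 with DMSO. CD3D rose from 6.27 ± 0.605 to 8.502 ± 0.634 FPKM, KRT8 rose from 55.7 ± 4.63 to 94.0 ± 13.2 FPKM and EPCAM fell from 32.0 ± 1.79 to 15.6 ± 0.744, while LUM, CDH5, VWF and MS4A1 were at 0. The 14 myeloid markers summed to 64.7 to 70.6 FPKM with celastrol and 88.2 to 96.7 with DMSO. Of 7 tested, limma-trend called 0 higher and 4 lower, with 1 higher at an unadjusted p under 0.05 and 2 higher by limma-voom. LYZ (lysozyme) fell from 37.96 ± 1.30 to 17.6 ± 1.13 FPKM and KIT from 5.28 ± 0.180 to 1.05 ± 0.0948. Other markers, named after their values were seen, went the other way. PTPRC averaged 14.8 FPKM with celastrol and 12.7 with DMSO, without overlap, and SPI1 22.3 and 17.9, with overlap. Neither was called. CD14 (0.364 and 0.113) and CSF1R (0.0911 and 0.0312) were higher in every celastrol library but below the minimum for testing. The part of such marker changes in the lower STAR level was not tested.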

How the data were processed

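RNA of SKM-1 cells was sequenced in 6 libraries. The deposited table gives FPKM per gene and library; the authors used HISAT2 2.0.5 and featureCounts 1.5.0-p3 with GRCh38, per the submitters' processing notes; the sources used here do not state counting settings or strand. Multiplying by gene length turned 100% of nonzero values into whole reads (within 0.001); the authors' divisor was 1.04 to 1.05 times listed reads with celastrol and 0.963 to 0.994 times with DMSO. All 58735 genes matched GENCODE 29 by ID and position.

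Differences were fitted with limma 3.58.1 (R 4.3.3), limma-trend on log2(FPKM + 0.1), mean FPKM of at least 1, treatment as the single term, two-sided, Benjamini-Hochberg adjusted over 12685 genes; fold changes of low genes are understated. The fit was tested on simulated data. Members and lists were chosen with earlier results of these data known. Named genes were all members, overlapping and adjacent genes of STAR, overlapping genes at 1 FPKM or more, 2 called genes of largest difference and the most abundant gene per list, and the 5 profiles closest to STAR. Pairs of libraries differed by a chi-square of 4.01 to 13.4 per gene within a treatment, so none repeated another.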

Additional observations from a re-analysis of the deposited data

How the results depend on the processing

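The alternatives were 2 pseudocounts, 2 filters, 4 scalings, limma-voom on recovered reads, a replicate block and each library left out. STAR stayed lower in all 16, at -1.51 under TPM and from -1.81 to -1.68 with a library left out. The 1 member called higher became 4 under TPM, 3 with limma-voom, 3 when scaled to listed reads, 2 when scaled to reads outside the mitochondrial chromosome, 0 with no filter, 0 with quantile normalization, 0 with the replicate block (STARD7 adjusted p = 0.0833) and 0 to 1 with a library left out; the 1 called lower became 0 under TPM and stayed at 1 with each library left out. Over all genes, 1947 were called higher and 1797 lower; under TPM these were 5266 and 813, with limma-voom 3650 higher, when scaled to listed reads 3024 higher, and with a library left out 1125 to 1937 higher (fewest without DMSO replicate 3, then 1128 and 1228 without celastrol replicates 2 and 3) and 987 to 1767 lower (fewest without DMSO replicate 3, then 1129 without celastrol replicate 2). Higher genes were 52.0% of calls, 71.4% with limma-voom, 70.0% when scaled to listed reads and 86.6% under TPM. Signs turned for STARD10 (0.20 under TPM, 0.052 with limma-voom and 0.054 when scaled to listed reads; -0.14 to 0.037 with a library left out), TSPO (0.10 under TPM), AMH (0.13 under TPM), ARAP1 (-0.026 to 0.14 with a library left out) and HSD17B10 (-0.024 to 0.11). Same-numbered libraries of the 2 treatments did not deviate together (correlations -0.016, -0.033 and 0.034). With 3 libraries per treatment this cannot show whether same-numbered libraries were prepared together. The replicate block gave 1776 higher and 1617 lower genes. Of 680 values of 43 named genes under the alternatives, 597 kept direction and call, 61 lost the call, 13 gained it and 9 changed sign. The causes were not tested. Depth limits CYP11A1 and STARD5.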

Other observations

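PNMT, which makes adrenaline from noradrenaline, lies beyond TCAP in the STARD3 neighbourhood on chromosome 17 (39667981 to 39670475). It was chosen after its values were seen, so it is described without a test. It had 5.31, 5.54 and 6.33 FPKM with celastrol and 20.8, 21.0 and 22.1 with DMSO. This was a 3.72-fold decrease (log2 difference -1.88, SE 0.08, lower in all 3 celastrol libraries). STARD3, nearby on the same strand, differed by 0.24 in the other direction, and TCAP, which lies between them, averaged 1.502 ± 0.499 FPKM with celastrol and 1.91 ± 0.622 with DMSO.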
